A study of Mus musculus with 12 samples.

Results

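The genes described here encode the channels, pumps and sensors through which a cell fills its internal calcium store, empties it and refills it. They are the IP3 receptors Itpr1, Itpr2 and Itpr3, the ryanodine receptors Ryr1, Ryr2 and Ryr3, the SERCA pumps Atp2a2 and Atp2a3, the store sensor Stim1 and the plasma membrane channel Orai1. Members were taken as every probe whose symbol in the platform's GEO annotation is one of these 10 names. That gave 16 of the 38784 probes on the array, for 9 of the 10 genes, since no probe carries the symbol Itpr1. Of the 16 probes, 10 (62.5%) had enough values to be tested, against 83.9% of all probes with 1 gene symbol. These 10 stand for 7 genes: Itpr2, Itpr3, Ryr1, Atp2a2, Atp2a3, Stim1 and Orai1.

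Calcium is held in the endoplasmic reticulum at a far higher concentration than in the cytosol. IP3 receptors open when phospholipase C produces IP3 after a hormone or growth factor binds the cell, and in fibroblasts they are the usual release channel, while ryanodine receptors serve mainly striated muscle and neurons. SERCA pumps return calcium to the store, and when the store runs low STIM1 in its membrane senses the loss and opens ORAI1 at the cell surface. Ryanodine receptors also bind FKBP12, the small protein from which the Shld1-binding domain was engineered.

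RNA came from mouse 3T3 cells, an established fibroblast line, in 4 groups of 3 arrays: control cells, and cells given 10 nM, 100 nM or 1 µM of Shld1. This small molecule binds an engineered, unstable FKBP12 domain, and a protein carrying that domain is then spared from breakdown. What the control cells received, how long treatment lasted and whether the cells held such a fusion are not known here. Each array compared a sample labelled with Cy5 with a commercial mouse reference RNA labelled with Cy3, with no dye swap. Every value below is a log2 ratio, sample over reference, with the median of the array subtracted, so that 0 is the ratio of its middle probe. The base of the logarithm was taken as 2, and the direction follows from the dyes in the labels. With the opposite direction each sign below would turn. Whether the 3 samples of a group came from separate cultures is not in the labels, so p-values measure only their spread, which may be technical, and the number of arrays limits the precision. In RNA from whole cultures, fewer cells of a type and less RNA per cell cannot be told apart.

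Between 30649 and 33615 probes had a value on an array. Of 10 fibroblast markers measured, 7 were above the reference in control cells and 1 below it, and of 8 leukocyte markers 0 were above and 6 below (limma, adjusted p under 0.05 over 14524 genes), where 26.5% of all genes were above and 19.6% below. Since they were first used to look at the sign of the ratio, they are no independent evidence of it. Of markers of the tissues rich in ryanodine receptors, 1 of 7 skeletal muscle genes was above and 1 below, 2 of 6 cardiac genes were above and 0 below, and 2 of 6 neuronal genes were above and 1 below.

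No probe of these genes passed the test at any dose of Shld1. At 1 µM, 0 of the 10 probes passed limma with Benjamini-Hochberg adjustment, with 1 at an unadjusted p under 0.05, and the smallest adjusted p was 0.999. The test called 0.00329% of all 30357 probes at that dose, a single one, so calls were rare everywhere on these arrays. At 10 nM and 100 nM 0 of the 10 passed, none had an unadjusted p under 0.05, and 0% of all probes were called (812 and 980 unadjusted). The F test over the 3 doses and the linear trend over dose rank called 0 of the 10 as well, and 0.00329% of all probes each. The 3 comparisons share the control arrays, so they are not independent. The median log2 change of the 10 probes was 0.10 at 10 nM, -0.11 at 100 nM and 0.12 at 1 µM, against 0.00, 0.02 and -0.01 over all probes tested.

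A change of 2-fold either way lay outside the 95% interval for most of these probes. The interval of the log2 change stayed between -1 and 1 for 8 of 10 probes at 10 nM, 8 at 100 nM and 7 at 1 µM, where 80.0%, 80.4% and 77.9% of all probes did. The wide intervals were those of Atp2a3 and of one Ryr1 probe, which varied most between arrays of the same group. The within-group standard deviation was 0.51 and 0.62 for the Atp2a3 probes and 0.51 for Ryr1 probe 22438, between 0.21 and 0.33 for the other 7, and 0.29 for the median probe on the array.

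**Figure D1:**
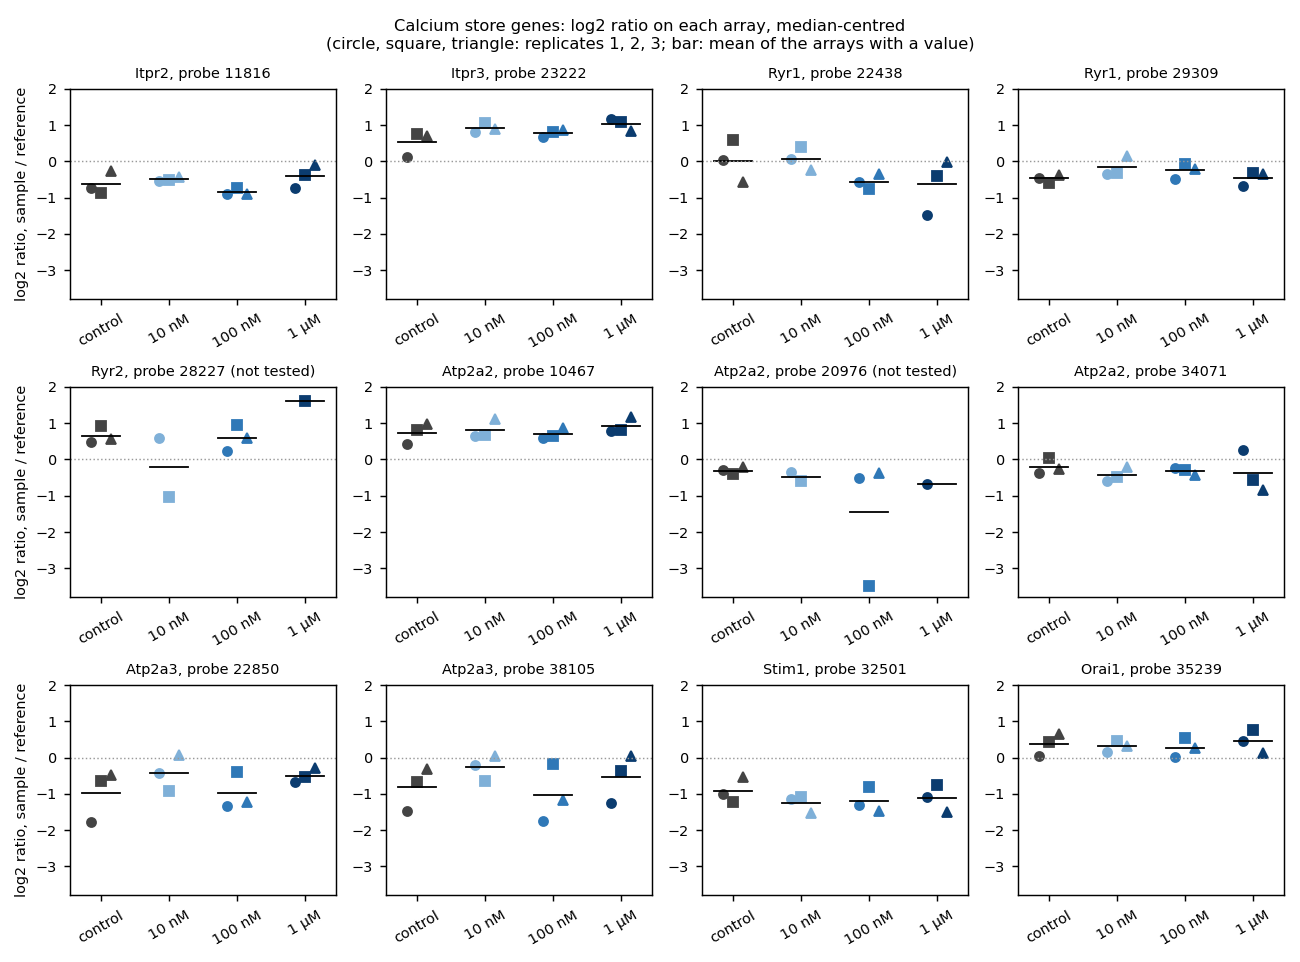
Log2 ratio of sample over reference (vertical axis) on each array with a value, for the 12 probes of the calcium store genes that had more than 3 values, in control cells and at 3 doses of Shld1 (horizontal axis); symbols mark replicate numbers and bars the group mean. Itpr3, Orai1 and Atp2a2 probe 10467 lie above 0 on all 12 arrays, Stim1 and Itpr2 below 0 on all 12.

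**Figure D2:**
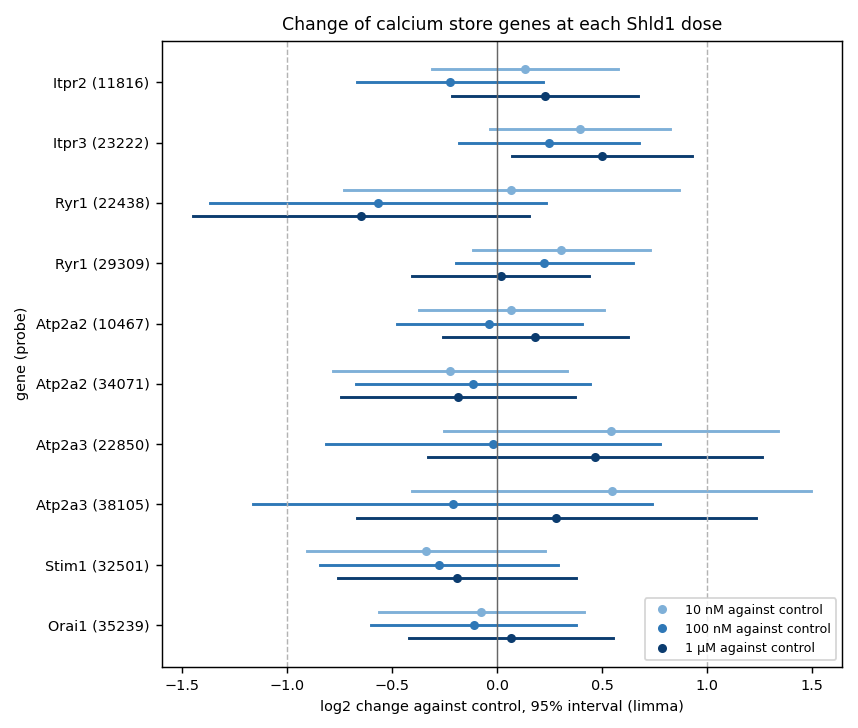
Log2 change against control (horizontal axis) at each dose for the 10 tested probes (vertical axis), with 95% intervals from limma; dashed lines mark a change of 2-fold either way. The intervals cross 0 for every probe and dose except Itpr3 at 1 µM, which runs from 0.07 to 0.93 before any correction for the number of probes.

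Against the reference RNA these genes did differ, some above it and some below. In control cells 7 of the 10 probes passed, 2 above and 5 below the reference, and 43.3% of all probes did (23.4% above, 19.9% below). In the mean of the 4 groups, which rests on all 12 arrays, 9 of 10 passed, 3 above and 6 below, against 71.3% of all probes (35.6% above, 35.6% below). Counted by gene, with the probes of a gene averaged, 4 of 7 passed in controls, Itpr3 above and 3 below (46.1% of all genes), and 7 of 7 in the mean of the 4 groups, 3 above and 4 below (73.0% of all genes, 38.6% above and 34.4% below). Atp2a2, counted above in that mean, averages probes called on opposite sides of the reference, at 0.79 and -0.33. By these shares a call against the reference is common on these arrays. Because the dyes were never exchanged, a probe's dye bias and a difference between cells and reference cannot be told apart. A ratio says how 3T3 cells compare with the reference for that transcript, and the ratios of different genes do not rank their amounts.

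**Figure D3:**
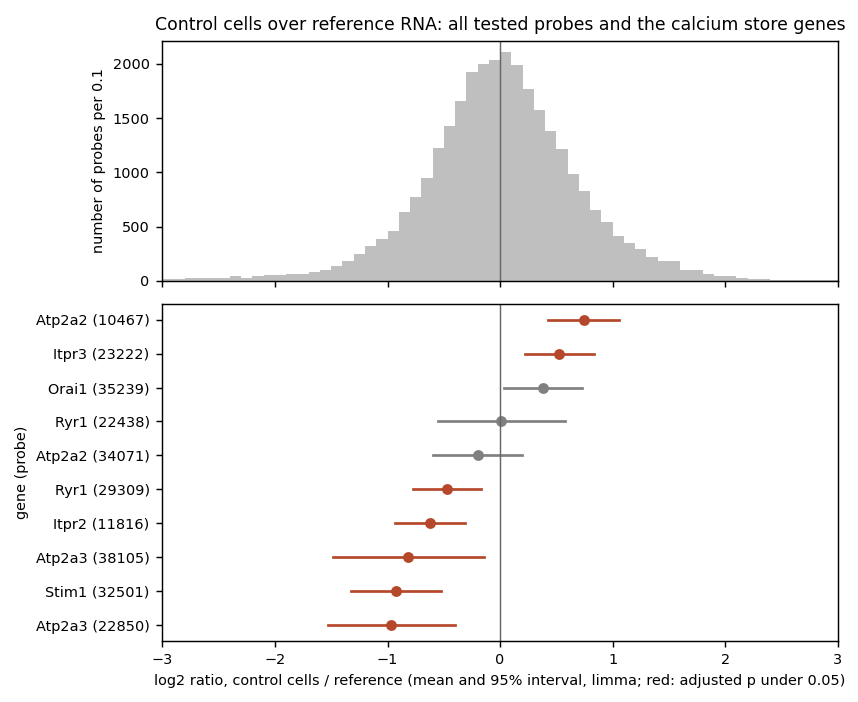
Log2 ratio of control cells over reference RNA (horizontal axis). The upper panel counts all tested probes in bins of 0.1 (112 probes below -3 and 18 above 3 are outside the axis), and the lower panel gives the 10 probes of the calcium store genes with 95% intervals, 2 of them called above the reference and 5 below.

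The IP3 receptor genes measured here, Itpr2 and Itpr3, lay on opposite sides of the reference. Each has a single probe, so the side of the gene and that of its probe cannot be told apart. Itpr3 encodes a receptor subtype found in epithelia and many proliferating cell lines. Its log2 ratio was 0.11, 0.76 and 0.71 in control replicates 1, 2 and 3, and 0.82, 1.05 and 0.89 at 10 nM. It was 0.66, 0.80 and 0.87 at 100 nM and 1.17, 1.08 and 0.83 at 1 µM. All 12 arrays were above 0 (11 of 12 without centring), and control replicate 1 was the lowest. The control mean was 0.53 ± 0.36 (SD, n = 3; 95% interval 0.22 to 0.83; adjusted p = 0.00946, limma), a ratio of 1.44. That call was lost without control replicate 2 (0.41, adjusted p = 0.0804) or control replicate 3 (0.44, adjusted p = 0.0669).

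Itpr3 had the smallest unadjusted p of the 10 probes at 1 µM. Its log2 change was 0.50 (SE 0.20, adjusted p = 0.999 in limma, 0.0262 unadjusted), with 0.39 (SE 0.20) at 10 nM and 0.25 (SE 0.20) at 100 nM. At 1 µM and at 10 nM the 3 treated arrays all lay above the 3 controls, and at 100 nM the groups overlapped. Ryr1 probe 29309 was the only other of the 10 whose arrays did not overlap with control at any dose, at 10 nM. Of all probes with 3 values in both groups, 3.42% lay wholly above control and 3.25% wholly below at 10 nM, 4.51% and 3.64% at 100 nM, and 3.42% and 3.92% at 1 µM. Without control replicate 1 the Itpr3 changes were 0.18 at 10 nM, 0.0397 at 100 nM and 0.29 at 1 µM. These were the lowest with any array left out, and the highest were 0.51, 0.37 and 0.62 in the same order.

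Itpr2, the subtype with the highest affinity for IP3, lay below the reference on every array. The values were -0.73, -0.87 and -0.28 in controls, -0.54, -0.51 and -0.42 at 10 nM, -0.90, -0.74 and -0.91 at 100 nM, and -0.73, -0.37 and -0.09 at 1 µM. The control mean was -0.62 ± 0.31 (SD, n = 3; adjusted p = 0.00438, limma), that is 1.54-fold below the reference, and over 21 other settings the adjusted p ran from 0.00177 to 0.0441. Groups overlapped at each dose, and the changes were 0.13 (SE 0.20), -0.22 (SE 0.20) and 0.23 (SE 0.20) in order of dose.

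Stim1 was well below the reference, and Orai1, the channel it opens, somewhat above it. Each of these genes also has a single probe. Stim1 was at -1.01, -1.23 and -0.53 in controls, -1.15, -1.10 and -1.54 at 10 nM, -1.31, -0.82 and -1.47 at 100 nM, and -1.08, -0.74 and -1.51 at 1 µM. No array was above -0.53. The control mean of -0.92 ± 0.35 (SD, n = 3; adjusted p = 0.00183, limma) was 1.90-fold below the reference and stayed below 0.05 in 21 other settings (0.000698 to 0.0213). Its changes with dose were -0.34 (SE 0.26), -0.28 (SE 0.26) and -0.19 (SE 0.26).

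Orai1 was at 0.05, 0.44 and 0.65 in controls, 0.15, 0.46 and 0.32 at 10 nM, 0.02, 0.55 and 0.26 at 100 nM, and 0.46, 0.76 and 0.12 at 1 µM. It was above 0 on all 12 arrays, or on 10 of 12 without centring. In control cells alone the mean of 0.38 ± 0.30 (SD, n = 3) did not pass in limma (adjusted p = 0.0682). Over 21 other settings the adjusted p in limma ran from 0.0377 to 0.326. Orai1 passed without control replicate 1, at 0.55, and with the replicate number as a fixed block, but not as a random one. The mean of the 4 groups, 0.35 (SE 0.08), did pass (adjusted p = 0.00155, limma). The dose changes were -0.07, -0.11 and 0.07 (SE 0.22 each).

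Itpr3 and Stim1 stood on opposite sides of the reference on every array, and for that reason, after their values were seen, the 200 bases before the start of each are shown from RefSeq (GRCm38.p6). Promoter activity was not measured. Capitals mark the GC box letters GGGCGG on either strand, a motif that Sp1-type factors bind. The windows are chr17:27057104-27057303 (plus strand) for Itpr3 and chr7:102267619-102267818 (plus strand) for Stim1.
Itpr3: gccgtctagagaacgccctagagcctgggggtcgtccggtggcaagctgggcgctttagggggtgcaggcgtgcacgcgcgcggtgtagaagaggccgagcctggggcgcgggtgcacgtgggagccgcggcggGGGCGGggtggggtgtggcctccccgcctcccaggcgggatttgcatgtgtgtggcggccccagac
Stim1: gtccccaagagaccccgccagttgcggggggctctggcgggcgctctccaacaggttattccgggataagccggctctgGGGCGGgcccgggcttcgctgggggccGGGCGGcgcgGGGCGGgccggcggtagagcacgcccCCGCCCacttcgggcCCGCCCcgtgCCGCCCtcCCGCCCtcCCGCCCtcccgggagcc
The Stim1 window holds the motif 8 times and 25 CpG sites, and the Itpr3 window holds it once and 21 CpG sites. The motif was present in 31.0% of the 32851 windows of that length and in 6 of the 7 windows found for the 10 genes. The median window held 5 CpG sites. Orai1 held the motif 3 times (27 CpG sites), Itpr2 4 (19), Atp2a3 5 (18), Ryr1 2 (6) and Ryr2 0 (11). A link between the motif and the side of the reference was not tested. A match is a description of the letters and not a bound site.

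The SERCA pump genes gave unlike pictures. Atp2a2 encodes SERCA2, whose SERCA2b form is the housekeeping pump of nearly all cells, and its probes disagreed. Probe 10467, which the annotation ties to the cDNA AK081191, was at 0.44, 0.81 and 0.97 in controls, 0.64, 0.68 and 1.11 at 10 nM, 0.58, 0.65 and 0.88 at 100 nM, and 0.78, 0.83 and 1.16 at 1 µM. Probe 34071, tied to NM_009722, was at -0.37, 0.04 and -0.27 in controls, -0.58, -0.48 and -0.20 at 10 nM, -0.22, -0.28 and -0.43 at 100 nM, and 0.27, -0.57 and -0.84 at 1 µM. The first was above the second on 12 of 12 arrays.

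The mean difference between these Atp2a2 probes was 1.12 ± 0.39 (SD, n = 12), between 0.51 and 2.01 on single arrays. An exact two-sided sign-flip permutation test over the 12 arrays gave p = 0.000488, the smallest it can give. Adjusted over the 3 pairs of probes compared, the permutation p was 0.00146. How often probes of the same gene differ in this way over the whole array was not tested. In controls probe 10467 was called above the reference (0.74 ± 0.27, SD, n = 3; adjusted p = 0.00149, limma), and probe 34071 was not called (-0.20 ± 0.21, n = 3; adjusted p = 0.402). In the mean of the 4 groups both were called in limma, on opposite sides. Probe 10467 was above the reference (0.79, SE 0.07, adjusted p = 9.23e-07) and probe 34071 below it (-0.33, SE 0.09, adjusted p = 0.00609). A ratio of Atp2a2 over the reference therefore depends on the probe. The third probe, 20976, also of NM_009722, had 9 values and was too sparse for the filter of the test (with 1 value in every group allowed, no comparison of it passed in limma). It lay between -0.67 and -0.22 on 8 arrays and at -3.48 in 100 nM replicate 2, where probes 10467 and 34071 were at 0.65 and -0.28.

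Dose did not separate the Atp2a2 arrays on either tested probe. The changes at 10 nM, 100 nM and 1 µM were 0.07, -0.04 and 0.18 (SE 0.20 each) for probe 10467 and -0.22, -0.11 and -0.19 (SE 0.26 each) for probe 34071. Each 95% interval held 0.

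Atp2a3 encodes SERCA3, a pump known from blood cells and some epithelia, and was below the reference with a wide spread between arrays. Probe 22850 was at -1.77, -0.65 and -0.47 in controls, -0.42, -0.92 and 0.06 at 10 nM, -1.32, -0.40 and -1.23 at 100 nM, and -0.68, -0.53 and -0.29 at 1 µM. Probe 38105 was at -1.48, -0.66 and -0.31 in controls, -0.20, -0.65 and 0.04 at 10 nM, -1.73, -0.17 and -1.18 at 100 nM, and -1.26, -0.38 and 0.03 at 1 µM. The same arrays were low on both probes (Pearson r = 0.89 over the 12 arrays, as a description), with control replicate 1 and 100 nM replicates 1 and 3 the lowest on probe 22850. The mean difference between the probes was -0.05 ± 0.28 (SD, n = 12; exact sign-flip permutation p = 0.520, adjusted 0.735).

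The control means of Atp2a3 were -0.97 ± 0.70 (SD, n = 3; adjusted p = 0.0102, limma) and -0.82 ± 0.60 (n = 3; adjusted p = 0.0491). Control replicate 1 decided much of this. Without it the values were -0.56 (adjusted p = 0.108) and -0.49 (adjusted p = 0.310), and the second call also ended without control replicate 2 (-0.90, adjusted p = 0.101) and in 7 further settings, with adjusted p from 0.0534 to 0.0579. In the mean of the 4 groups both probes passed, at -0.72 (SE 0.13) and -0.66 (SE 0.15), in limma with adjusted p of 0.000314 and 0.00205. Dose changes were 0.54, -0.02 and 0.47 (SE 0.36 each) on the first probe and 0.55, -0.21 and 0.28 (SE 0.44 each) on the second. Without control replicate 1 they were 0.14, -0.42 and 0.0638 on the first and 0.22, -0.54 and -0.0488 on the second. Other single arrays moved them too, over ranges of 0.14 to 0.79, -0.42 to 0.23 and 0.0638 to 0.71 on the first and 0.22 to 0.80, -0.64 to 0.14 and -0.0488 to 0.65 on the second.

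**Figure D4:**
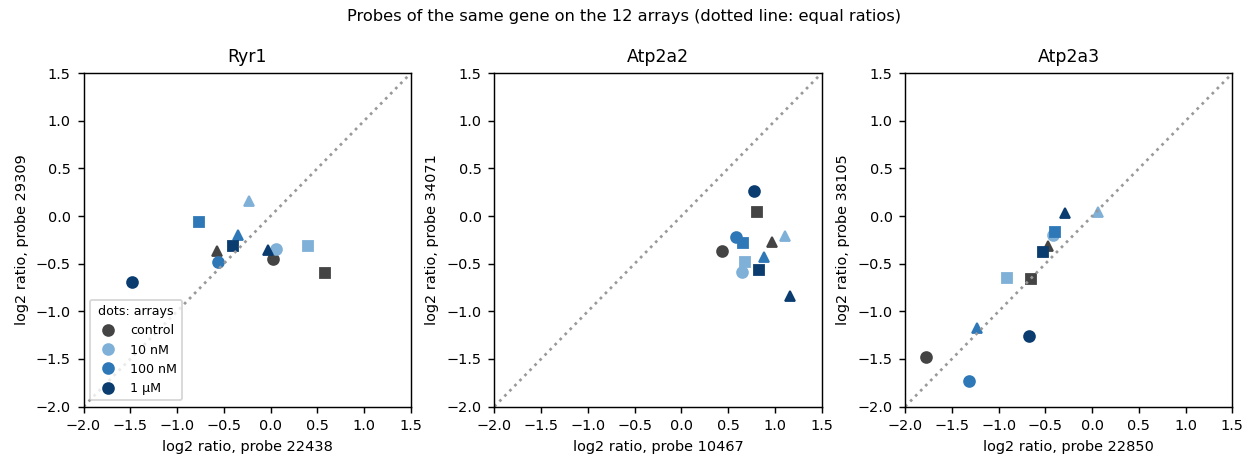
Log2 ratios of 2 probes of the same gene (horizontal and vertical axes) on the 12 arrays, for Ryr1, Atp2a2 and Atp2a3; colours mark the groups, symbols the replicate numbers, and the dotted line equal ratios. Atp2a3 points follow the line, all Atp2a2 points lie below it (mean difference 1.12), and Ryr1 points scatter about it.

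The spread of Atp2a3 over the arrays was set beside that of other genes. Atp2a3, averaged over its probes, was the member gene whose group means spanned the widest range (0.66, from -1.01 at 100 nM to -0.35 at 10 nM). The genes most like it over the 12 arrays, of 12977 with a value on each, were the leukocyte integrin gene Itgb2 (Pearson r = 0.92, Spearman rho = 0.83), the phosphatase gene Ptpn18 (0.91, 0.86) and the thioesterase gene Acot11 (0.90, 0.94). They are the highest of many correlations over few arrays. The mean of the 8 leukocyte markers had r = 0.80 and rho = 0.75 with it, and the mean of 10 fibroblast markers r = -0.67 and rho = -0.58. Among the leukocyte markers Ptprc had the lowest median (-2.25, between -3.62 and -1.26) and Cd79a the highest (0.25, between -0.26 and 1.25). For the means of the other marker and pathway lists r lay between -0.54 and 0.43, and the median r over all single genes was -0.07. The leukocyte marker mean ran from -1.99 to -0.76 in controls, -1.09 to -0.91 at 10 nM, -1.60 to -1.20 at 100 nM and -1.09 to -0.68 at 1 µM. Atp2a3 also went with the overall width of the ratios on an array, the median absolute deviation of all its probes, which lay between 0.40 and 0.51 (r = -0.74, rho = -0.84). Replicate 1 had the lowest Atp2a3 and the widest ratios of its group in controls, at 100 nM and at 1 µM. At 10 nM replicate 2 had both. The part of the leukocyte markers, the array width or the replicate number in the values of Atp2a3 was not tested. With arrays scaled to equal width, no dose change of Atp2a3 passed. None had passed before the scaling, so this says nothing on the part of array width.

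Ryanodine receptors were thinly measured. Ryr1 is the release channel of skeletal muscle, Ryr2 that of the heart, and Ryr3 is found at low levels in many tissues. Of their 7 probes 2 had a value on all 12 arrays, both of Ryr1, and 1 of Ryr3 had none. Over all probes with 1 gene symbol 72.8% had a value on every array and 3.5% on none.

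Ryr1 lay near or below the reference. Probe 29309 was at -0.45, -0.60 and -0.37 in controls, -0.34, -0.31 and 0.16 at 10 nM, -0.48, -0.06 and -0.20 at 100 nM, and -0.69, -0.32 and -0.36 at 1 µM. Its control mean was -0.47 ± 0.12 (SD, n = 3; adjusted p = 0.0155, limma), a call that ended without control replicate 1 (-0.48, adjusted p = 0.0524) or 2 (-0.41, adjusted p = 0.0890). Its dose changes were 0.31, 0.22 and 0.02 (SE 0.19 each).

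The second Ryr1 probe, 22438, was at 0.02, 0.58 and -0.57 in controls, 0.06, 0.40 and -0.23 at 10 nM, -0.56, -0.77 and -0.34 at 100 nM, and -1.48, -0.41 and -0.03 at 1 µM. In controls it lay on both sides of the reference (0.01 ± 0.58, SD, n = 3; adjusted p = 0.980, limma). Its changes were 0.07, -0.57 and -0.65 (SE 0.37 each), and groups overlapped at each dose. At 1 µM the change was -0.23 without 1 µM replicate 1 and -0.36 without control replicate 2. With each array left out in turn it ran from -0.95 to -0.23, and at 100 nM from -0.86 to -0.28. Its trend per dose step was -0.26 (limma, unadjusted p = 0.0460, adjusted p = 0.9999). Over all 30357 probes 1142 had an unadjusted p under 0.05 in the trend. Probe 29309 changed by 0.22 at 100 nM and 0.02 at 1 µM, with a trend of -0.003. The mean difference between the Ryr1 probes was 0.06 ± 0.58 (SD, n = 12; exact sign-flip permutation p = 0.735, also after adjustment), and the higher probe was 22438 on 5 of 12 arrays. Probe 23126, the third of Ryr1, had 1 value, -0.44 in 100 nM replicate 1.

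Ryr2 and Ryr3 had too few values for the filter of the test. Ryr2 probe 28227 had 9 values: 0.49, 0.92 and 0.56 in controls, 0.60 and -1.04 in 10 nM replicates 1 and 2, 0.24, 0.96 and 0.60 at 100 nM, and 1.61 in 1 µM replicate 2. It lay above 0 on 8 of those 9 arrays. With a filter of 1 value in every group (32967 probes, limma) its control mean of 0.65 did not pass (adjusted p = 0.0957), the mean of the 4 groups did at 0.66 (SE 0.18, adjusted p = 0.00978), and the dose changes of -0.87 (SE 0.44), -0.06 (SE 0.40) and 0.95 (SE 0.56) did not. The 1 µM value there is from 1 array. The other Ryr2 probe, 16580, had 1 value, -1.37 in 100 nM replicate 3. Ryr3 probe 33152 had 3 values, -0.21, 0.34 and -0.61, in control replicate 3, 100 nM replicate 2 and 1 µM replicate 2. Why a value is blank is not stated, so blanks say nothing on whether a transcript is present.

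Among other genes of the store and its surroundings, no list held a gene that passed at any dose. Of 26 measured partners of these channels (32 listed), 0 passed at 10 nM, 100 nM or 1 µM in limma over 14524 genes, with 1, 0 and 0 at an unadjusted p under 0.05. Of 23 genes of calcium entry and clearance at other membranes (31 listed) 0 passed, with 1, 3 and 0 unadjusted, and of 24 calcium sensors and kinases (26 listed) 0 passed, with 1, 0 and 1. Over all genes 0% passed at each dose, with 360, 438 and 618 unadjusted. The partners' single unadjusted case at 10 nM was Calr, the calcium-buffering chaperone calreticulin, which control cells showed at -0.86 ± 0.37 (SD, n = 3). At 10 nM it was at 0.09 ± 0.51 (n = 3), a change of 0.95 (SE 0.30, adjusted p = 1.00, limma), and at the higher doses at -0.40 ± 0.51 and -0.62 ± 0.15 (n = 3 each).

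Against the reference each list held genes on both sides, where 26.5% of all genes were called above it and 19.6% below in controls. Of the 26 partners 6 were above the reference in controls and 4 below, among them the chaperone gene Canx (calnexin) at 1.40 ± 0.46 (SD, n = 3), the lysosomal channel gene Mcoln1 at 0.97 ± 0.24 (n = 3) and Calr, while Tpcn1, another endolysosomal channel gene, did not pass at -0.52 ± 0.27 (n = 3). Of the 23 entry and clearance genes 8 were above and 6 below, with Vdac1, the main channel of the outer mitochondrial membrane, at 1.32 ± 0.22 (n = 3), the mitochondrial uptake regulator Micu2 at 0.79 ± 0.24 (n = 3) and the cation channel gene Trpm4 at -0.73 ± 0.36 (n = 3). Cacna1d did not pass at -0.43 ± 0.24 (n = 3). Of the 24 sensors and kinases 13 were above and 1 below. In the mean of the 4 groups 38.6% of all genes were called above the reference and 34.4% below. There 13 of the sensors and kinases were above and 5 below. Of the partners 8 were above and 6 below, and of the entry and clearance genes 12 and 7. In controls S100a4, a calcium-binding protein of fibroblasts, stood at 1.94 ± 0.26 (n = 3) and S100a11 at 1.16 ± 0.22 (n = 3). S100a1, known from striated muscle, stood at -1.24 ± 0.66 (n = 3), and Camk4 did not pass at -0.43 ± 0.32 (n = 3).

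Close relatives of the members were added after their values were seen. Stim2 was at 0.31 ± 0.23 (SD, n = 3) in controls, Orai3 at 0.18 ± 0.20 (n = 3), Atp2a1, the fast-muscle SERCA pump, at -0.10 ± 0.22 (n = 3) and Orai2 at -0.51 ± 0.36 (n = 3), and none passed against the reference in controls (limma). In the mean of the 4 groups Stim2 (0.34, adjusted p = 0.000372) and Orai2 (-0.64, adjusted p = 0.00151) passed in limma and the others did not. Each of these genes has a single probe. Fkbp1a, which encodes FKBP12, was at 0.42 ± 0.13 (n = 3) in controls (above the reference, adjusted p = 0.00498, limma) with a change of 0.02 (SE 0.14) at 1 µM. Fkbp1b, which encodes the related FKBP12.6 that binds the heart ryanodine receptor, was at -0.30 ± 0.13 (n = 3; adjusted p = 0.0323, limma) with a change of -0.03 (SE 0.16) and a value on 11 arrays.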

How the data were processed

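The values are the deposited log2 ratios of sample (Cy5) over reference (Cy3) per probe and array. No source used here gives the authors' normalization, background correction or spot filter, and scanner intensities were not used, so signal over background is unknown. The log base was taken as 2, and the centring is unstated: array medians lay between -0.20 and -0.10. Each array was centred on its median, and old symbols were replaced through their gene identifiers with those of RefSeq.

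The 30357 probes measured on 2 or more of the 3 arrays in every group were tested with limma 3.58.1 in R 4.3.3 on all 12 arrays, group as the only term, Benjamini-Hochberg at 0.05. Lists used 1 value per gene, the mean of its probes on all 12 arrays or else the probe with most values. The test of 1 µM was tried on 5 simulated data sets with 200 of the 30357 probes changed. It called 28.2% of the 2-fold and 89.2% of the 4-fold changes. The simulated noise was independent between probes and arrays, and a case with fewer probes changed was not tested. These shares therefore need not hold for a gene that changes alone.

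Members and lists were chosen with earlier results of these data known. List genes named are the 2 highest and 2 lowest in controls with values on all 12 arrays, and Fkbp1a and Fkbp1b, plus the 3 genes closest by Pearson r to the member with the widest span of group means. The replicate number was not used as a pairing: deviations of same-numbered arrays correlated at -0.10 to 0.25 (median 0.10), not above 0.1 in every pair, although array numbers in the labels run on within a replicate number. Those of differently numbered arrays correlated lower at the median, at -0.31 to 0.21 (median -0.06). Alternatives were other scalings, filters, a replicate block, other moderation, the compared groups alone and each array left out. Figures: matplotlib 3.10.9.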

Additional observations from a re-analysis of the deposited data

How the results depend on the processing

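Over 21 other settings, 0 of the 10 probes passed at any dose in limma (210 values a dose; smallest adjusted p 0.790, at 1 µM without control replicate 3). In control cells against the reference, between 4 and 7 of the 10 passed when an array was left out, the fewest without control replicate 2. In the mean of the 4 groups the count was 9 or 10, with Ryr1 probe 22438 the added one without centring (-0.43), without control replicate 2 (-0.35) and without 1 µM replicate 3 (-0.35). The number of all probes called, 1 in each case, ran from 0 to 2 at 1 µM, 0 to 1 in the F test and 0 to 3 in the trend when an array was left out. It was 0 in a fit of control and 1 µM alone. With the replicate number as a fixed block it was 0 at 1 µM, 0 in the F test and 0 in the trend, and 8 of the 10 member probes passed against the reference, Orai1 being the added call. The labels name no batch, but array numbers run on within a replicate number, and 8 of 12 arrays correlated best with one of their own number.

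Small changes took either sign when an array was left out. At 10 nM the ranges were -0.0833 to 0.18 for Atp2a2 probe 10467, -0.24 to 0.0607 for Orai1 and -0.23 to 0.35 for Ryr1 probe 22438. At 100 nM they were -0.19 to 0.0795 for Atp2a2 probe 10467, -0.20 to 0.006 for probe 34071, -0.42 to 0.23 for Atp2a3 probe 22850, -0.64 to 0.14 for probe 38105 and -0.28 to 0.0237 for Orai1. At 1 µM they were -0.51 to 0.0453 for Atp2a2 probe 34071, -0.0488 to 0.65 for Atp2a3 probe 38105, -0.10 to 0.23 for Orai1, -0.0522 to 0.13 for Ryr1 probe 29309 and -0.37 to 0.0113 for Stim1. With arrays scaled to equal width, Atp2a3 probe 22850 was at 0.0095 at 100 nM. Ryr1 probe 22438 in controls was at -0.14 without centring, -0.0222 with equal width, -0.0323 with quantile normalization and between -0.28 and 0.30 without an array. The cause was not tested.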
